A study of Mus musculus with 36 samples.

Results

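Transcript levels of 9 genes linked to glucocorticoid signalling were followed in mouse hippocampus across age, induction age and ribosome pulldown. The genes were Hif3a, Plin4, Fkbp5, Sgk1, Tsc22d3, Zbtb16, Ddit4, Nr3c1 and Nr3c2, and each was found by its symbol among the 36172 genes of the deposited table, 9 of 9. They were chosen by the measured differences between old and young inputs, which were already known for some of them, above all for Hif3a and Plin4. Age differences of these genes are therefore given below as descriptions, without a test. All mice were Cx3cr1-NuTRAP, a genotype in which the promoter of Cx3cr1, active in microglia and related macrophages, drives a cre recombinase that switches on a tag on ribosomes. The young early-induced inputs came from 10 mice of 6 months (5 females, 5 males), the old early-induced inputs from 12 mice of 22 months (7 females, 5 males) and the old late-induced inputs from 7 mice of 22 months (5 females, 2 males). An input is cleared homogenate of both hippocampi, thus RNA of all cell types, and every group carried induced cre. The same 7 old late-induced mice gave the 7 TRAP libraries (translating ribosome affinity purification), which hold RNA pulled down with an antibody against GFP. The inducing agent and the ages at induction are not given in the sources used here. Each input library carries an animal number of its own.

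Corticosterone, the main glucocorticoid of mice, enters cells and binds the glucocorticoid receptor, encoded by Nr3c1, and the mineralocorticoid receptor, encoded by Nr3c2, which has the higher affinity and is prominent in hippocampal neurons. Bound receptor moves to the nucleus and acts at response elements built as an inverted repeat of the hexamer AGAACA. Fkbp5 encodes a co-chaperone that is induced by the receptor and lowers its hormone binding, which closes a feedback loop. Sgk1 (a kinase acting on ion channels), Tsc22d3 (the anti-inflammatory protein GILZ), Zbtb16 (the zinc-finger repressor PLZF), Ddit4 (an inhibitor of mTORC1 signalling), Plin4 (a lipid droplet coat protein) and Hif3a (a member of the hypoxia-inducible factor family that can restrain its relatives) are known to be induced by glucocorticoids in various tissues.

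The bases before the transcription starts were read to show which of these genes carry the receptor's sequence close to their start. Nr3c1 and Zbtb16 were not scanned. For the other 7 of the 9 genes, RefSeq starts on GRCm38.p6 gave 14 windows of 250 bases upstream, several of Sgk1 and Tsc22d3. The element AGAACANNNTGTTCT, which reads the same on both strands, was present in 3 of 32851 such windows (0.00913%), and 1 of these belonged to Sgk1. The windows of Sgk1 with the element (chr10:21993640-21993889, plus strand, inside the Sgk1 gene and outside its GENCODE vM21 exons) and of Hif3a (chr7:17062428-17062677, minus strand, no GENCODE vM21 feature) were:
Sgk1: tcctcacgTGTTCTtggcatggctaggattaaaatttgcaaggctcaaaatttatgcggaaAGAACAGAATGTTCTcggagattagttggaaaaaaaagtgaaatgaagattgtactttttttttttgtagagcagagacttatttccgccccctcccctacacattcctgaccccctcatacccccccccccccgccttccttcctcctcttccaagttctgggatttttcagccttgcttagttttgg
Hif3a: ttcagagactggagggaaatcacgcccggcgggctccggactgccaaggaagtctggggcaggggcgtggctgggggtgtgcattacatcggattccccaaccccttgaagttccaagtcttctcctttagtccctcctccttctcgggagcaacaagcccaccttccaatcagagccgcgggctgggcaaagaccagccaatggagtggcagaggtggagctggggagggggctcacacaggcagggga
Both are written 5′ to 3′ on the gene's strand, and capitals mark AGAACA or its complement TGTTCT, together with the spacer of the element. In Sgk1 the element lies at chr10:21993701-21993715, from -189 to -175 relative to a start at 21993890. The hexamer AGAACA on either strand, which the element contains, was found in 4 of 14 windows of the set and in 16.1% of all windows. Those of the set belonged to Sgk1 and Tsc22d3 alone. The letters ACGTG on either strand, a form of the core of hypoxia response elements, were found in 3 of 14 windows (of Ddit4, Fkbp5 and the Sgk1 window shown). They were found in 16.6% of all windows. The form GCGTG was not scanned. The Hif3a window held neither AGAACA nor ACGTG on either strand, and it holds GCGTG. A match describes the letters of these windows and does not show binding.

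Library totals ran from 12.9 M to 20.45 M estimated counts, and levels are given in CPM (counts per M, the usual unit of relative abundance) with TMM factors over all 36 libraries. Hif3a and Plin4 were the least counted of the set, with 15 to 233 and 22.4 to 591.2 counts per library. CPM is not corrected for transcript length, so levels were not compared between genes. The TRAP fraction was checked against cell type markers fixed for this purpose: 10 of 10 microglial genes were higher in TRAP than in input (median log2 fold change 4.28), as were 8 of 8 endothelial genes (1.15). The medians of the astrocyte, oligodendrocyte, oligodendrocyte precursor, neuron, mural, meningeal, choroid plexus and blood lists were below 0, from -2.32 (blood) to -0.30 (neurons). No microglial, astrocyte, oligodendrocyte or endothelial marker was at 0 in any library, whereas Map2 of the neuron list and Acta2 of the mural list were listed at 0 in all 36. The numbers of the sample sheet run in blocks, from 1 to 23 in old early-induced, 25 to 38 in old late-induced and 39 to 57 in young libraries, so sheet order and group cannot be told apart.

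With age the 9 genes did not move as a block. Hif3a and Plin4 had the largest differences, Zbtb16, Fkbp5 and Tsc22d3 were lower by less, Nr3c2 was lower mainly in late-induced mice, Nr3c1 was higher, and Sgk1 and Ddit4 were close to their young levels. In old late-induced inputs 4 of the 9 genes (Hif3a, Fkbp5, Zbtb16 and Nr3c2) lay wholly below the young range, which 4.58% of the 14948 tested genes did. In old early-induced inputs all 9 ranges overlapped the young range, and 1.81% of all genes had ranges apart in either direction. The members had been chosen with these contrasts known, and the 2 contrasts share the 10 young libraries. In bulk tissue, fewer cells of a type and less RNA per cell cannot be told apart.

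Nr3c1, the glucocorticoid receptor, had a lowest, median and highest level of 69.1, 79.7 and 88.5 CPM in young inputs, 84.6, 93.9 and 127 CPM in old early-induced inputs and 85.4, 95.8 and 105 CPM in old late-induced inputs. The old ranges began near the top of the young range and overlapped it. The old groups had similar medians, and the early-induced range reached higher, through 2 females. Its log2 fold change against young was 0.31 ± 0.06 (SE) in early-induced and 0.30 ± 0.07 in late-induced mice. Nr3c2, the mineralocorticoid receptor, spanned 101, 115 and 131 CPM in young inputs, 64.0, 106 and 136 CPM in old early-induced inputs, and 67.9, 86.0 and 90.4 CPM in old late-induced inputs. The late-induced mice were all below the young ones, while the early-induced mice held the lowest and the highest value of the 29 inputs. Both of those extreme values came from males, whose 5 levels ran from 64.0 to 136 CPM, against 101 to 126 CPM in the 7 females. The mean log2 CPM of the choroid plexus list was 6.02 in the lowest (replicate 2) and 1.26 in the highest (replicate 6). Over the 29 inputs, after subtracting group means, Nr3c2 had r = -0.51 with that list (permutation adjusted p 0.095). The part of choroid plexus tissue in these Nr3c2 levels was not tested. The log2 fold change of Nr3c2 was -0.18 ± 0.09 in early-induced and -0.51 ± 0.10 in late-induced mice.

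Fkbp5, the receptor's co-chaperone, had 90.0, 106 and 124 CPM in young, 59.3, 82.0 and 103 CPM in old early-induced and 69.6, 72.9 and 81.3 CPM in old late-induced inputs. Late-induced values were all below young values and lay close together, with a coefficient of variation of 5.3%. The log2 fold changes were -0.39 ± 0.06 and -0.53 ± 0.07, that is, 1.31-fold and 1.44-fold lower than in young inputs.

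Hif3a had 8.25, 10.3 and 14.7 CPM in young, 0.939, 3.66 and 8.57 CPM in old early-induced and 1.79, 3.87 and 6.62 CPM in old late-induced inputs. A single old early-induced mouse reached into the young range. The group means were 10.8 ± 2.19 (SD, n = 10), 3.74 ± 2.18 (n = 12) and 3.95 ± 1.98 CPM (n = 7), so the spread in CPM was alike while the coefficient of variation was 20.4% in young and 58.3% and 50.2% in the old groups. The log2 fold change was -1.57 ± 0.23 in early-induced and -1.61 ± 0.28 in late-induced mice, 2.97-fold and 3.05-fold lower. Plin4, which coats lipid droplets, had 9.19, 15.4 and 35.6 CPM in young, 3.49, 6.52 and 12.2 CPM in old early-induced and 3.94, 5.61 and 9.75 CPM in old late-induced inputs. Its ranges overlapped at the bottom of the young group, through males at 9.19 and 9.69 CPM. All other young levels were 12.4 CPM or more, above the highest old level of 12.2 CPM. The young group was the most spread, up to 35.6 CPM in a female. The log2 fold changes were -1.33 ± 0.24 and -1.60 ± 0.29, 2.52-fold and 3.03-fold lower.

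Zbtb16, a transcriptional repressor, had 91.0, 104 and 110 CPM in young, 48.7, 70.2 and 94.4 CPM in old early-induced and 44.7, 64.6 and 74.8 CPM in old late-induced inputs. All late-induced values, and all early-induced values but the highest, lay below the young range. Its log2 fold changes were -0.58 ± 0.08 and -0.83 ± 0.10. Tsc22d3, the gene of GILZ, had 107, 129 and 145 CPM in young, 67.6, 101 and 143 CPM in old early-induced and 84.4, 101 and 121 CPM in old late-induced inputs. Only 2 early-induced mice and 1 late-induced mouse reached the young range, and the other old mice lay below it. The log2 fold changes were -0.35 ± 0.08 and -0.34 ± 0.10.

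Sgk1 and Ddit4 differed least between the ages. Sgk1 had 125, 150 and 178 CPM in young, 74.5, 169 and 199 CPM in old early-induced and 140, 172 and 216 CPM in old late-induced inputs, with log2 fold changes of 0.10 ± 0.12 and 0.26 ± 0.13. Ddit4 had 84.1, 104 and 119 CPM in young, 59.6, 97.5 and 128 CPM in old early-induced and 80.0, 93.2 and 108.1 CPM in old late-induced inputs, with log2 fold changes of -0.09 ± 0.07 and -0.08 ± 0.08. The low ends of the old early-induced group for these genes and for Tsc22d3 were set by the same females, replicates 10 and 11. These had 74.5 and 80.5 CPM of Sgk1 against 140 to 199 CPM in the other 10 mice of the group, 67.6 and 68.1 CPM of Tsc22d3 against 94.5 to 143 CPM, and 68.1 and 59.6 CPM of Ddit4 against 86.0 to 128 CPM. They also had the highest Nr3c1 of their group, 127 and 113 CPM against at most 105 CPM. Replicate 10 had the lowest Hif3a (0.939 CPM) and Fkbp5 (59.3 CPM) as well, while replicate 11 lay among the other mice for both. Both were among the 4 lowest for Plin4 (3.50 and 3.66 CPM), and for Zbtb16 and Nr3c2 neither was the lowest or the highest. Without both libraries, a choice made after seeing the data, the old early against young log2 fold change was 0.22 ± 0.07 for Sgk1, -0.27 ± 0.06 for Tsc22d3, -0.02 ± 0.05 for Ddit4, 0.23 ± 0.04 for Nr3c1, -1.39 ± 0.18 for Hif3a and -1.16 ± 0.22 for Plin4.

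**Figure D1:**
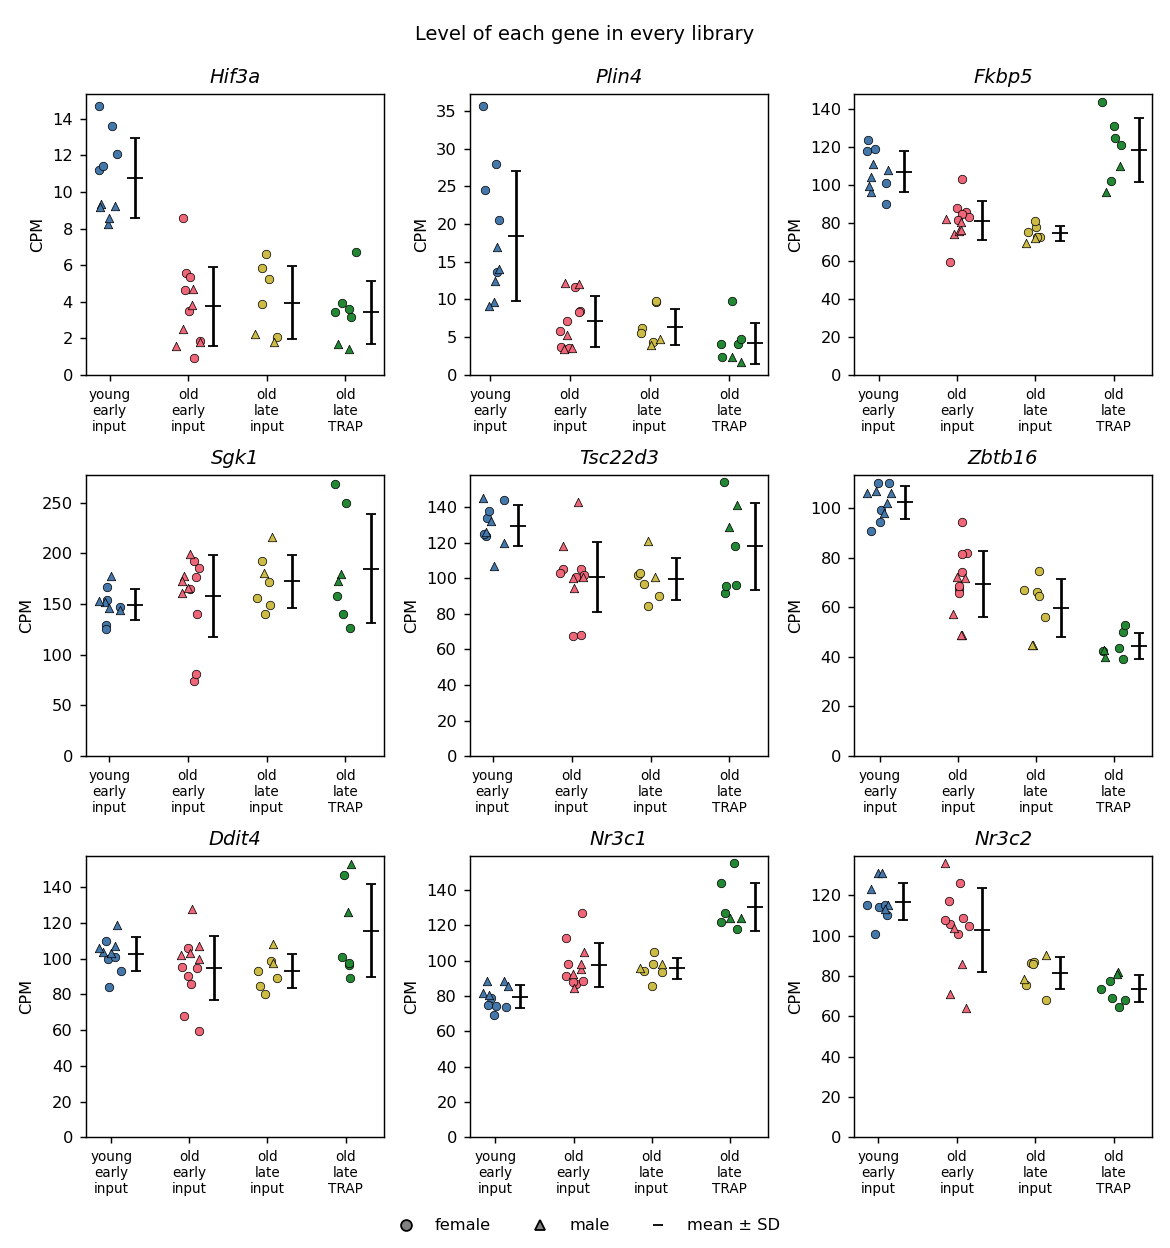
Level of each of the 9 genes in CPM (vertical axis, from 0, different for each gene) in every library of the young early-induced, old early-induced and old late-induced inputs and the old late-induced TRAP libraries. Circles are females, triangles males, and bars the mean ± SD; old Hif3a and Plin4 values lie mostly below the young ones, and 2 old early-induced females lie apart at the bottom for Sgk1, Tsc22d3 and Ddit4.

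Ranked by mean CPM over the input groups, the order was young, old early-induced, old late-induced for Plin4, Fkbp5, Tsc22d3, Zbtb16, Ddit4 and Nr3c2, the reverse for Sgk1, young, late-induced, early-induced for Hif3a, and early-induced, late-induced, young for Nr3c1. The means of Zbtb16 were 102 ± 6.40, 69.4 ± 13.4 and 59.7 ± 11.6 CPM (SD), and those of Nr3c2 117 ± 9.12, 103 ± 20.8 and 81.6 ± 7.93 CPM. Neighbouring groups of each order overlapped for all 9 genes, except the young and late-induced inputs of Hif3a.

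Microglial, astrocyte, oligodendrocyte and blood markers were also higher in the same old inputs. The mean log2 CPM of the microglial list ran from 4.77 to 5.00 in young, 5.14 to 5.48 in old early-induced and 5.27 to 5.78 in old late-induced inputs, and 9 and 10 of its 10 genes were called higher. The astrocyte list ran from 7.59 to 7.69, 7.74 to 8.03 and 7.82 to 8.08, and 5 of its 10 genes were called higher and 0 lower in both contrasts. The old ranges of these lists lay wholly above the young ones. Of the oligodendrocyte genes 8 and 9 of 10 were called higher, and of the blood genes 2 and 4 of 4. Of 8 endothelial genes 2 were called higher and 0 lower in both contrasts (median log2 fold change 0.18 and 0.28). Of 7 tested mural genes 2 were called higher and 0 lower in both (0.27 and 0.24). Of all genes, 13% and 17% were called higher. The oligodendrocyte list ran from 7.22 to 7.78, 7.54 to 8.08 and 7.69 to 8.33, and the neuron list from 9.39 to 9.52, 9.34 to 9.55 and 9.37 to 9.48 in the same order. The part of cell composition in the age differences of the 9 genes was not tested.

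Other genes of the pathway, listed with earlier results of these data known, showed both directions. Of 25 further glucocorticoid-responsive genes, 1 rose and 8 fell in old early-induced against young inputs, where edgeR's quasi-likelihood test with Benjamini-Hochberg adjustment called 13% of all genes higher and 12.6% lower. In late-induced mice 5 rose and 9 fell, against 17% and 17.5% of all genes. The list's median log2 fold change was -0.08 in both contrasts, beside 0.01 over all genes. The decreases were led by Angptl4 (a lipoprotein lipase inhibitor, -0.75 ± 0.19 in early-induced and -0.92 ± 0.23 in late-induced mice, edgeR adjusted p 0.00486 and 0.00277), Mfsd2a (a lipid transporter of brain endothelium, -0.70 ± 0.10 and -0.85 ± 0.12, edgeR adjusted p 5.93e-06 and 2.62e-06) and Cdkn1a (a cell cycle inhibitor, -0.72 ± 0.11 and -0.35 ± 0.12, edgeR adjusted p 9.87e-06 and 0.0288). Dusp1, a phosphatase of MAP kinases, rose by 0.87 ± 0.14 and 0.90 ± 0.16 (edgeR adjusted p 3.23e-05 and 7.07e-05). Dusp1 levels ran from 13.5 to 25.2 CPM in young, 22.3 to 62.7 CPM in old early-induced and 28.5 to 46.6 CPM in old late-induced inputs, and only the late-induced mice were all above the young ones. Among classical targets, Klf9 fell by 0.14 and 0.15 (edgeR adjusted p 0.0015 and 0.00234). Per1 and Mt1 rose in late-induced mice (0.28 and 0.24, edgeR adjusted p 0.00368 and 0.0312) and not past the threshold in early-induced mice (0.17 and 0.20, edgeR adjusted p 0.0504 and 0.0501), and Mt2 differed by -0.08 and 0.04. The count of rises depended on the processing and on single libraries. In early-induced mice it was 3 under upper quartile scaling and with DESeq2, and 2 with library size alone, a minimum count of 50, no covariate or only the 2 groups in the fit. In late-induced mice it was 3 without covariate and in females only. In early-induced mice it was 3 without old replicate 10 or 11 or young replicate 4, and 2 without old replicate 2, 3, 5, 6 or 7 or young replicate 1, 2, 5 or 7. In late-induced mice it was 2 without old replicate 3, 4 or 5 or young replicate 8, and 3 without old replicate 1 or young replicate 2, 3 or 10. The count of falls was 8 or 9 in both with any library left out.

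**Figure D2:**
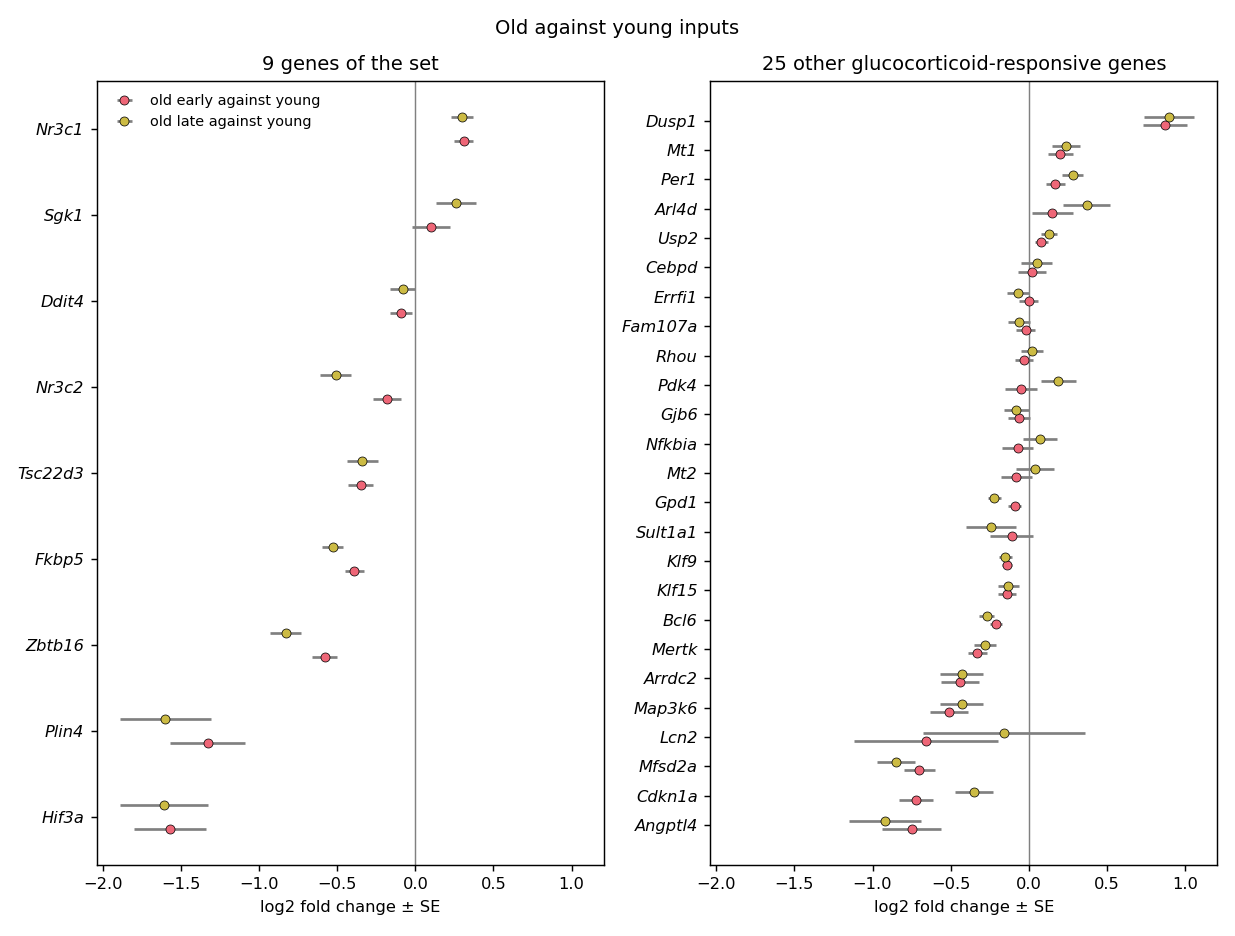
Log2 fold change ± SE of old early-induced (pink) and old late-induced (yellow) against young inputs (horizontal axis) for the 9 genes and for 25 other glucocorticoid-responsive genes (vertical axis). Hif3a and Plin4 lie farthest to the left, from -1.33 to -1.61, while Dusp1 lies farthest to the right in the second panel, at 0.87 and 0.90.

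The next 3 lists are to be read beside the shares of all genes called, 13% higher and 12.6% lower in early-induced mice. In late-induced mice these shares were 17% and 17.5%. Genes that handle the receptor or its ligand showed small differences. Of 11 such genes, 1 rose (Ptges3, the co-chaperone p23, 0.14) and 1 fell (Ncor1, a corepressor, -0.19) in early-induced mice, and 2 rose and 3 fell in late-induced mice, when the co-chaperone Fkbp4 was among the increases (0.16, edgeR adjusted p 0.0122). The early-induced decrease lost its call without young replicate 1, 2, 3, 4 or 10 or old replicate 2 or 5, the increase lost its call without young replicate 8 or old replicate 5, 2 rose without young replicate 5, and 0 of 11 genes were called in females only. In late-induced mice 1 rose without old replicate 1, 4 rose under upper quartile scaling, and 0 rose or fell in females only. Hsd11b1, which regenerates active corticosterone, differed by -0.08 and -0.13 (edgeR adjusted p 0.392 and 0.216). Of 15 genes of hypoxia signalling, the relatives of Hif3a among them, 1 rose and 1 fell in early-induced mice and 2 rose and 2 fell in late-induced mice. With 1 library left out these counts ran from 0 to 2 rises and 1 to 3 falls in early-induced mice and from 1 to 3 rises, with 2 falls throughout, in late-induced mice. Arnt, the partner subunit of the hypoxia-inducible factors, fell by 0.26 and 0.35 (edgeR adjusted p 0.00266 and 0.000469). Hif1a was the gene that rose in early-induced mice (0.10, edgeR adjusted p 0.0355), and it differed by 0.03 in late-induced mice (edgeR adjusted p 0.686). Epas1 differed by -0.04 and 0.02 (edgeR adjusted p 0.566 and 0.82). Of 12 tested lipid droplet genes besides Plin4, 2 rose and 2 fell in early-induced mice and 3 rose and 1 fell in late-induced mice. Of the relatives of Plin4, Plin5 differed by -0.26 and -0.49 (edgeR adjusted p 0.444 and 0.181), Plin3 rose by 0.32 and 0.46 (edgeR adjusted p 0.00176 and 0.000115), and Plin2 differed by 0.19 and 0.45 (edgeR adjusted p 0.181 and 0.0033).

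Whether the 9 genes varied together between mice of the same group was examined over the 29 inputs after subtracting each group's mean from log2 CPM (prior count 2), which removes the age difference itself. Of 36 pairs, 9 had a Benjamini-Hochberg adjusted permutation p under 0.05, 6 positive and 3 negative, and each of the 9 had the same sign in all 3 groups. By r they formed 2 sets. The first held Hif3a, Plin4 and Fkbp5, which rose and fell together from mouse to mouse, with Nr3c1 in the opposite direction, and the second held Sgk1, Tsc22d3 and Ddit4. Spearman's rho called 12 pairs, the same 9 and Hif3a with Zbtb16 (rho 0.533, permutation adjusted p 0.0385), Fkbp5 with Zbtb16 (0.537, permutation adjusted p 0.00879) and Nr3c1 with Nr3c2 (0.471, permutation adjusted p 0.0385), which lie outside these sets.

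In the first set, Hif3a and Plin4 had Pearson's r = 0.75 (permutation p 1e-05, the smallest that 100000 permutations can give, adjusted p 0.00018) and Spearman's rho = 0.756 (permutation p 2e-05). Without the 2 libraries farthest from the median of Hif3a, r was 0.715. Within groups r was 0.781 in young, 0.836 in the early-induced and 0.767 in the late-induced old inputs. Mice with more Hif3a than others of their group thus tended to have more Plin4 in each group. In young inputs both genes also followed sex. All young females had more Hif3a than all young males (11.2 to 14.7 against 8.25 to 9.35 CPM). Their median Plin4 was 24.5 CPM, against 12.4 CPM in males. The part of sex in the r of single groups was not tested. Hif3a and Fkbp5 had r = 0.743 (rho 0.716, each with permutation p 1e-05, adjusted p 0.00018), with 0.565, 0.86 and 0.89 in the 3 groups and 0.556 without the 2 farthest libraries. In young inputs alone, r of this pair fell to 0.084 without the 2 farthest libraries of that group. Plin4 and Fkbp5 had r = 0.651 (permutation p 0.00012, adjusted p 0.00072) and rho = 0.717 (permutation p 6e-05), with 0.63, 0.653 and 0.816 in the groups and 0.65 without the 2 farthest libraries.

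Nr3c1, the receptor itself, ran against these 3 genes. Its r was -0.699 with Plin4 (rho -0.725, permutation p 6e-05 and 2e-05, adjusted p 0.00054), -0.612 with Hif3a (rho -0.564, permutation p 0.0008 and 0.00171, adjusted p 0.00411) and -0.572 with Fkbp5 (rho -0.486, permutation p 0.00532 and 0.0121, adjusted p 0.0213). Without the 2 farthest libraries these were -0.705, -0.449 and -0.317. The pair of Plin4 and Nr3c1 had r = -0.868, -0.612 and -0.761 in the 3 groups. In young inputs this pair also followed sex, with Nr3c1 at 69.1 to 79.0 CPM in females and 80.4 to 88.5 CPM in males. Without old early-induced replicates 10 and 11 only the pair with Plin4 kept its call (r = -0.662, permutation adjusted p 0.00432), whereas Hif3a and Nr3c1 had r = -0.392 (permutation adjusted p 0.0819) and Fkbp5 and Nr3c1 r = -0.382 (permutation adjusted p 0.146). Leaving out replicate 10 alone ended the call of Fkbp5 and Nr3c1 (r = -0.351, permutation adjusted p 0.234).

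In the second set, Sgk1 and Ddit4 had r = 0.837 (rho 0.693, permutation p 4e-05 and 0.00013, adjusted p 0.00048), Tsc22d3 and Ddit4 r = 0.787 (rho 0.488, permutation p 0.00012 and 0.00961, adjusted p 0.00072) and Sgk1 and Tsc22d3 r = 0.742 (rho 0.549, permutation p 0.00125 and 0.0024, adjusted p 0.00562). These relations rested largely on replicates 10 and 11, which lie apart from the rest. They are also the 2 libraries farthest from the median of Sgk1, so both ways of leaving out give the same r for its pairs. Without replicates 10 and 11, Sgk1 and Ddit4 had r = 0.578 (permutation adjusted p 0.0154), Tsc22d3 and Ddit4 0.526 (permutation adjusted p 0.0517) and Sgk1 and Tsc22d3 0.292 (permutation adjusted p 0.262), so that 5 of the 9 called pairs kept their call. A sixth pair, Fkbp5 and Zbtb16, passed only without these libraries (r = 0.532, permutation adjusted p 0.00871, against 0.451 and 0.0551 with them). The 3 pairs among Hif3a, Plin4 and Fkbp5 were nearly as strong without these libraries, at 0.712, 0.67 and 0.654.

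**Figure D3:**
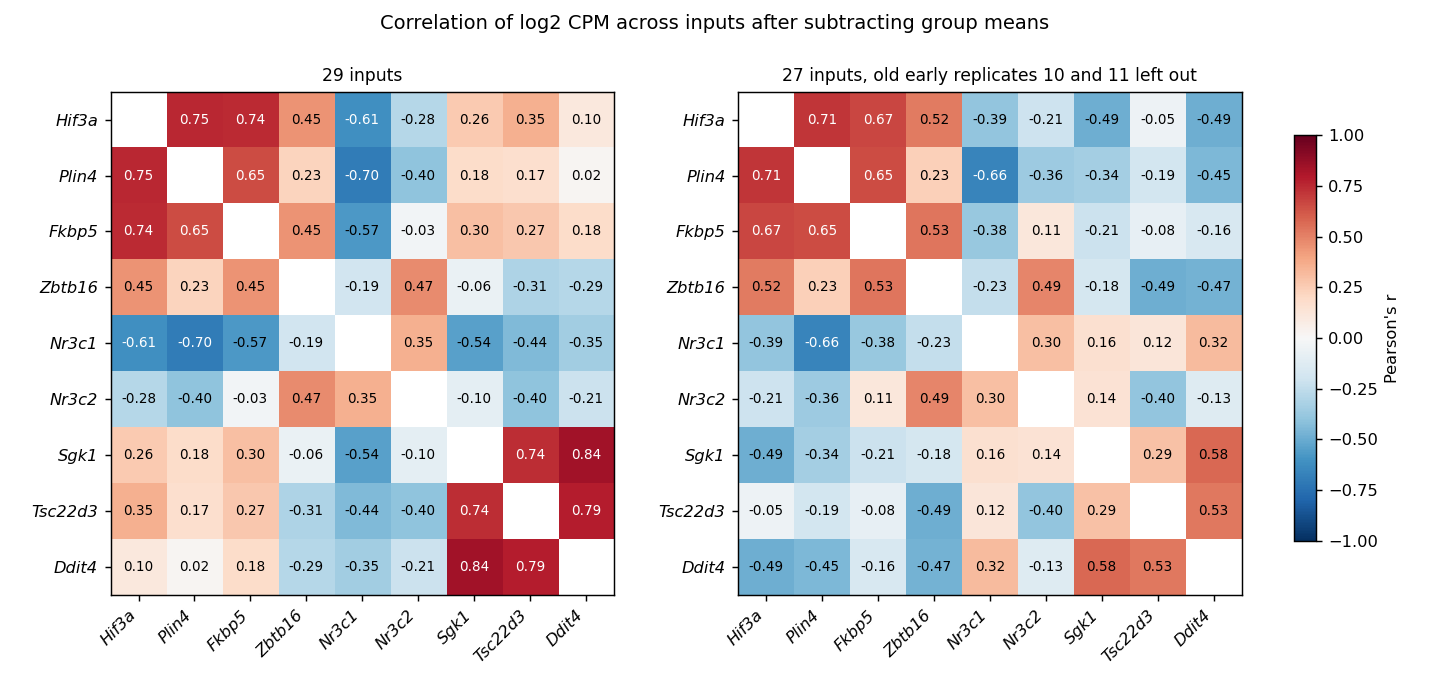
Pearson's r between the 9 genes (rows and columns) of log2 CPM after subtracting group means, over all 29 inputs and over 27 inputs without old early-induced replicates 10 and 11, coloured from -1 (blue) to 1 (red). The block of Hif3a, Plin4 and Fkbp5 keeps r of 0.65 to 0.71 in the second panel, while the block of Sgk1, Tsc22d3 and Ddit4 drops to 0.29 to 0.58.

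Within single groups few pairs passed when p-values were adjusted over all pairs and groups. These were Plin4 with Nr3c1 in young inputs (permutation adjusted p 0.0391) and, in old early-induced inputs, Hif3a with Plin4 (0.0342), Hif3a with Fkbp5 (0.014), Sgk1 with Ddit4 (0.0391) and Tsc22d3 with Ddit4 (0.0342), all as permutation adjusted p. None passed over the 7 old late-induced inputs. Sex was also removed, as a single male-female difference shared by all groups, so a sex difference particular to a group remained. This left Hif3a and Plin4 at r = 0.701, Hif3a and Fkbp5 at 0.714 and Plin4 and Fkbp5 at 0.609. Of the 36 pairs, 15 then passed.

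**Figure D4:**
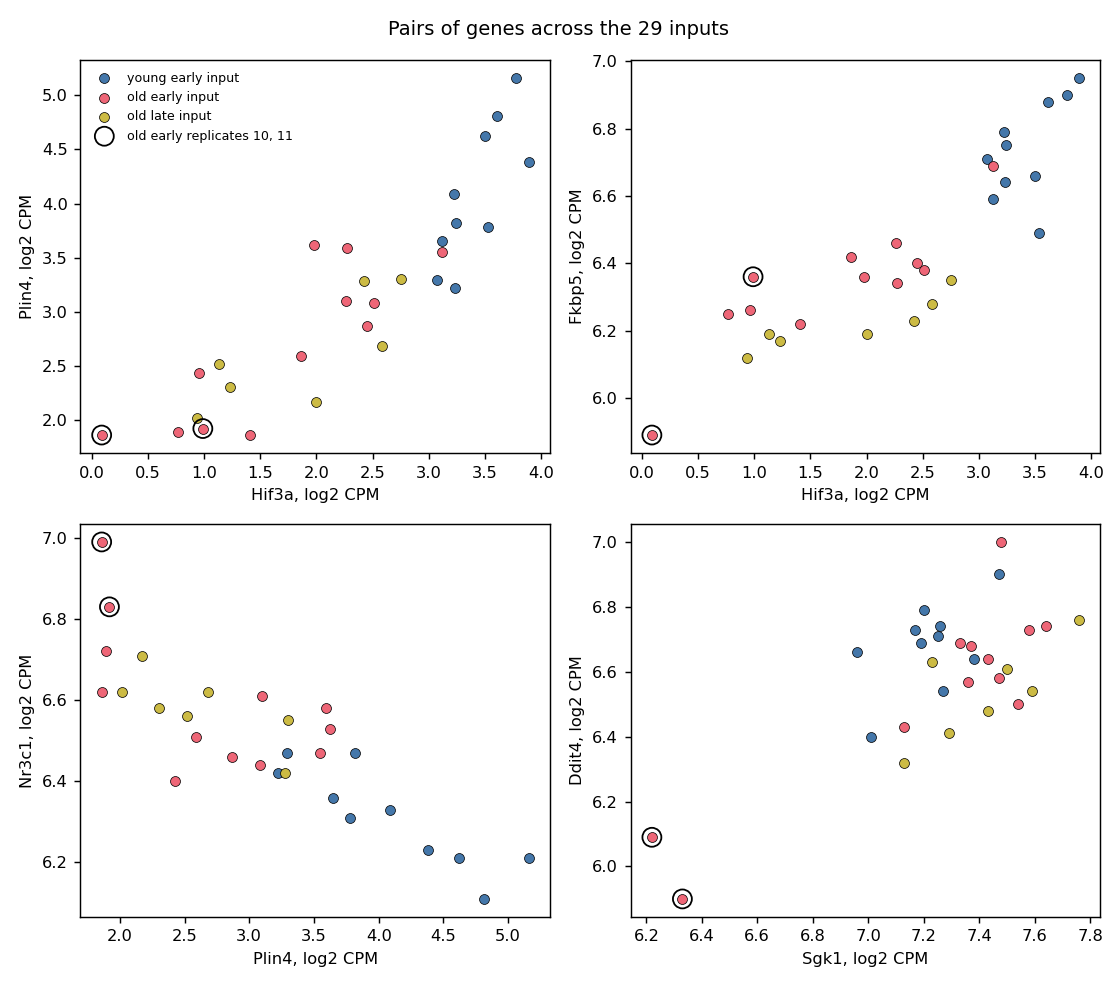
Log2 CPM of 4 pairs of genes in the 29 inputs, coloured by group (both axes log2 CPM with a prior count of 2), with old early-induced replicates 10 and 11 circled. Hif3a rises with Plin4 and Plin4 falls against Nr3c1 inside each group. Hif3a rises with Fkbp5 in both old groups and less clearly in young inputs. The 2 circled mice lie far from the others for Sgk1 and Ddit4.

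The correlations were also ranked against the rest of the transcriptome, as a description over 13936 other genes with a mean above 1 CPM. The gene most like Hif3a was Pfkfb4, a regulator of glycolysis (r = 0.756), followed by Plin4 (rank 2) and Fkbp5 (rank 3), Zfp707 (0.732) and Car7, a carbonic anhydrase (0.729). Hif3a came first for Plin4, ahead of Mertk, a receptor for the uptake of dying cells (0.729), Dph3 (0.726), Smox, a spermine oxidase (0.697), and Dok3 (0.687). For Fkbp5 the leading genes were Dhx33 (0.797), Fam83d (0.743), Gpd1, a glycerol-3-phosphate dehydrogenase (0.743), Hif3a (0.743) and Rab26 (0.725). The median r over all genes was -0.002, -0.002 and 0.014 for Hif3a, Plin4 and Fkbp5, and the 95th percentile 0.377, 0.364 and 0.406. At the other end, Nr3c1 ranked 13935 for Plin4, 13910 for Hif3a and 13889 for Fkbp5.

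Few relations between these genes and cell type markers passed the test within groups. Of 90 pairs of a member and a marker list, 2 passed, both of Zbtb16: r = -0.662 with the endothelial list (rho -0.633, permutation p 0.00043 and 0.00065, adjusted p 0.0373) and -0.614 with the blood list (rho -0.431, permutation p 0.00083 and 0.0219, adjusted p 0.0373). These adjusted p belong to r, and by rho neither pair passed (permutation adjusted p 0.0585 and 0.197). With the shared sex difference removed as well, r was -0.552 and -0.554 (permutation adjusted p 0.0833 and 0.0522), and without the 2 farthest libraries -0.522 and -0.445. For Hif3a, r with the 10 lists ran from -0.462 to 0.256, for Plin4 from -0.338 to 0.135 and for Fkbp5 from -0.52 to 0.253, with smallest permutation adjusted p of 0.222, 0.284 and 0.105.

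The ribosome pulldown shows which of the 9 genes were relatively more abundant in the TRAP fraction than in the input of old late-induced mice. That fraction was enriched for microglial markers and still held RNA of other cell types. The mean log2 CPM of the neuron list was 9.17 in TRAP and 9.42 in input, and that of the astrocyte list 7.38 and 7.94. In the fit with sex as covariate, Fkbp5, Nr3c1 and Ddit4 were higher in TRAP than in input, and Zbtb16 and Nr3c2 lower. Hif3a, Plin4, Sgk1 and Tsc22d3 did not pass in that fit, which does not pair the libraries of a mouse. With the mouse as a replicate block, Plin4 and Tsc22d3 passed as well, as given below. The 5 calls of 9 in the fit with sex are to be read against a background of 59.2% of 14596 genes called (30.4% higher, 28.8% lower). The share called in the set was thus near that of all genes. Of the 9, 2 (Fkbp5 and Nr3c1) lay wholly above the input range, as 19.6% of all genes did.

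Fkbp5 had 69.6, 72.9 and 81.3 CPM in input and 96.2, 121 and 144 CPM in TRAP libraries. All TRAP values were above all input values, and the log2 ratio within a mouse ran from 0.47 to 0.94. The log2 fold change was 0.66 ± 0.07 (SE, edgeR adjusted p 3.39e-07, higher in 7 of 7 mice). Nr3c1 had 85.4, 95.8 and 105 CPM in input and 118, 124 and 155 CPM in TRAP libraries, again without overlap, a log2 fold change of 0.44 ± 0.06 (edgeR adjusted p 1.65e-05, higher in 7 of 7 mice). Ddit4 had 80.0, 93.2 and 108.1 CPM in input and 89.2, 101 and 153 CPM in TRAP libraries, which overlapped. Its log2 fold change was 0.30 ± 0.10 (edgeR adjusted p 0.014, higher in 5 of 7 mice), and it lost its call under upper quartile scaling (0.15, edgeR adjusted p 0.162), with library size alone (0.19, edgeR adjusted p 0.0851) and in females only (0.25, edgeR adjusted p 0.0954).

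Zbtb16 had 44.7, 64.6 and 74.8 CPM in input and 39, 42.8 and 53 CPM in TRAP libraries. The ranges overlapped through the 2 males, whose inputs were the lowest, and the ratio was below 0 in 7 of 7 mice. The log2 fold change was -0.42 ± 0.09 (edgeR adjusted p 0.000509). Nr3c2 had 67.9, 86.0 and 90.4 CPM in input and 64.8, 73.7 and 82.1 CPM in TRAP libraries, with a log2 fold change of -0.16 ± 0.06 (edgeR adjusted p 0.0452, lower in 5 of 7 mice). That call was lost on leaving out any of 10 of the 14 libraries (edgeR adjusted p up to 0.0942). The 2 receptors therefore had opposite signs in the pulldown.

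Plin4 had 3.94, 5.61 and 9.75 CPM in input and 1.75, 4.14 and 9.74 CPM in TRAP libraries. The ratio ran from -1.40 to 0.00 on the log2 scale and was at or below 0 in all 7 mice. The log2 fold change of Plin4 was -0.64 ± 0.27 (edgeR adjusted p 0.0537, and 0.00149 with the mouse as a replicate block). Hif3a had 1.79, 3.87 and 6.62 CPM in input and 1.43, 3.45 and 6.71 CPM in TRAP libraries, which covered the same span, and its log2 fold change was -0.22 ± 0.24 (edgeR adjusted p 0.452, lower in 5 of 7 mice). Tsc22d3 (84.4, 101 and 121 CPM in input, 91.5, 118 and 154 CPM in TRAP) had 0.23 ± 0.10 (edgeR adjusted p 0.0553, and 0.00554 with the mouse as a replicate block). Sgk1 (140, 172 and 216 CPM in input, 126, 173 and 268 CPM in TRAP) had 0.10 ± 0.15 (edgeR adjusted p 0.6), with TRAP values on both sides of the inputs.

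Libraries of the same mouse deviated together from their group means, and the fit with the mouse as a replicate block in place of sex called 7 of the 9 genes. That fit also called more of all genes, 9330 of 14596. It added Plin4 (-0.69, edgeR adjusted p 0.00149) and Tsc22d3 (0.22, edgeR adjusted p 0.00554), and the 5 other calls stood. Upper quartile scaling and library size alone shifted the whole contrast, with medians over all genes of -0.17 and -0.13 in place of -0.02, and Sgk1 then had -0.05 and -0.02. Since endothelial markers were also higher in TRAP, levels in it are those of a fraction enriched for more than 1 cell type. The part of RNA from endothelial and other cells in the values of the 9 genes was not tested.

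**Figure D5:**
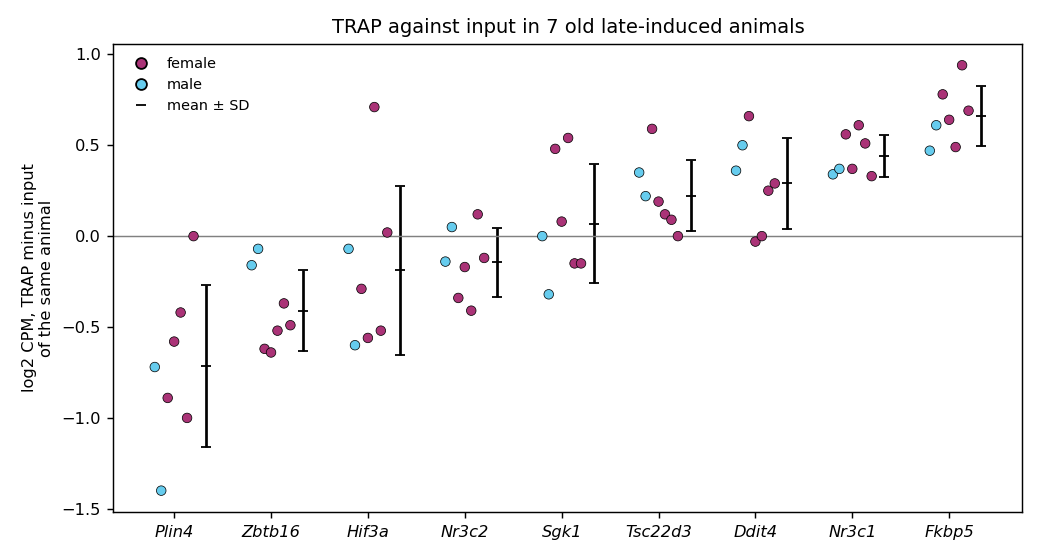
Log2 CPM of the TRAP library minus that of the input of the same mouse (vertical axis) for each of the 9 genes (horizontal axis) in 7 old late-induced mice, with the mean ± SD. Fkbp5 and Nr3c1 lie above 0 and Zbtb16 below 0 in all 7 mice, while Hif3a and Sgk1 lie on both sides.

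Of the 25 other glucocorticoid-responsive genes, 6 rose and 10 fell in TRAP against input, where 30.4% of all genes were called higher and 28.8% lower. The median log2 fold change of these 25 genes was -0.13, beside -0.02 over all genes. The largest increases were Mertk (2.02 ± 0.07, edgeR adjusted p 2.29e-13) and Sult1a1, a sulfotransferase (1.95 ± 0.11, edgeR adjusted p 2.09e-10). The largest decreases were Pdk4, a kinase of pyruvate dehydrogenase (-0.99 ± 0.14, edgeR adjusted p 1.04e-05), and Gjb6, an astrocyte gap junction gene (-0.87 ± 0.08, edgeR adjusted p 8.72e-08). Klf9, Mt1 and Mt2 fell (-0.33, -0.39 and -0.66, edgeR adjusted p 0.000555, 0.00419 and 0.000235), and Per1 differed by 0.12 (edgeR adjusted p 0.2). Mertk, whose level followed Plin4 between input mice, had 112 to 189 CPM in TRAP against 29.1 to 41.8 CPM in input. Of the 11 genes that handle receptor or ligand, 5 rose and 4 fell, beside the same shares of all genes. The rises were led by H6pd, which supplies the cofactor of Hsd11b1 (1.68, edgeR adjusted p 1.02e-08), and the falls by Hsd11b1 itself (-0.70, edgeR adjusted p 1.03e-05). Under upper quartile scaling 2 of these 11 rose.

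Induction age was compared between the old groups. Of 14948 genes, 5 were called (0.0334%), and 0 of the 9 members, by edgeR's quasi-likelihood test with Benjamini-Hochberg adjustment. An unadjusted p under 0.05 was found for 1736 genes, and DESeq2 and limma voom called 58 and 4 genes. All 9 ranges overlapped, and 0.0201% of all genes had ranges apart. The largest estimate was that of Nr3c2, with 103 ± 20.8 CPM in early-induced (SD, n = 12) and 81.6 ± 7.93 CPM in late-induced inputs (SD, n = 7). The estimate was -0.33 ± 0.10 on the log2 scale (edgeR adjusted p 0.185). It passed in females only (-0.45, edgeR adjusted p 0.00255), and without the males with the lowest Nr3c2, old early-induced replicate 2 (-0.37, edgeR adjusted p 0.0378) or replicate 5 (-0.37, edgeR adjusted p 0.0412). Zbtb16 differed by -0.25 ± 0.09 (edgeR adjusted p 0.282), Plin4 by -0.27 ± 0.28 (edgeR adjusted p 0.744), Sgk1 by 0.16 ± 0.13 (edgeR adjusted p 0.648), Fkbp5 by -0.13 ± 0.07 (edgeR adjusted p 0.434), and Hif3a, Tsc22d3, Ddit4 and Nr3c1 by -0.04 to 0.01. Without old early-induced replicates 10 and 11, Hif3a had -0.26 ± 0.21 (edgeR adjusted p 0.682) and Plin4 -0.46 ± 0.26 (edgeR adjusted p 0.507).

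Between the sexes, 26 of 14948 genes were called in the inputs (0.174%), and 0 of the 9 members. Unadjusted p was under 0.05 for 1632 genes, and DESeq2 called 63 genes, Ddit4 among them (0.24, DESeq2 adjusted p 0.0414). Hif3a had the largest estimate, -0.66 ± 0.21 in males against females (edgeR adjusted p 0.272). Young males had 8.25 to 9.35 CPM and young females 11.2 to 14.7 CPM of Hif3a, without overlap, whereas old early-induced males had 1.59 to 4.69 CPM and females 0.939 to 8.57 CPM. Nr3c1 was the other way round in young mice, with 80.4 to 88.5 CPM in males and 69.1 to 79.0 CPM in females. Ddit4 differed by 0.24 ± 0.06 (edgeR adjusted p 0.146) and Zbtb16 by -0.24 ± 0.07 (edgeR adjusted p 0.246). Whether the age difference itself differed between sexes was tested in the 22 early-induced inputs, where 0 of 14547 genes were called (0%), with 2272 at an unadjusted p under 0.05 and 19 called by DESeq2. The estimate for Plin4 was 1.05 ± 0.46 (edgeR adjusted p 0.279), and that of Nr3c2 was -0.39 ± 0.17 (edgeR adjusted p 0.277), which became -0.57 (edgeR adjusted p 0.0252) without old early-induced replicate 6, the male with the highest Nr3c2.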

How the data were processed

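PolyA RNA of hippocampus was sequenced in 36 libraries. The values are estimated counts in 1 table deposited by the authors and marked raw per the file headers; 77.4% of nonzero values were not whole, so overlapping genes and paralogs are uncertain. mm10 and DESeq2 are named in the submitters' processing notes; aligner and counter are not given in the sources used here. The 9 genes, the lists and the tests were chosen with earlier results of these data known. Named genes were the 9, the list genes of largest change, stated pathway parts and the 5 genes most like Hif3a, Plin4 and Fkbp5. Lists held 144 genes, 143 matched, 2 by identifier.

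Counts were rounded and tested with edgeR 4.0.16 in R 4.3.3 (filterByExpr by group, minimum count 10, TMM, glmQLFit, glmQLFTest); a call is an adjusted p under 0.05 (Benjamini-Hochberg over all genes tested), and all 9 genes passed the filter in every fit. TRAP against input used 14 libraries with sex as covariate; age, induction and sex contrasts used 29 inputs with group and sex. Samples were grouped from the labels, and mice were matched by animal number: same-mouse deviations correlated from 0.308 to 0.47 across genes, different mice at a median of -0.086. Correlations were tested by 100000 permutations within groups, exact for 7 libraries (scipy 1.17.1). Alternatives were other scalings, filters, covariates and tools (DESeq2 1.42.0, limma 3.58.1 voom), females only, and each library left out. The scripts were tested on simulated data. Intervals are SE from the quasi-likelihood F statistic.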

Additional observations from a re-analysis of the deposited data

Results flagged for a closer look

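Each of the 9 genes was checked for a library standing apart from its group in the 3 groups of 7 or 10 libraries. Of 27 such sets of values, 0 exceeded Dixon's critical value at 95%, where chance alone gives about 1.4. This check was run on groups of up to 10 libraries only. It thus left out the larger group of old early-induced inputs, in which replicates 10 and 11 lie apart for Sgk1, Tsc22d3 and Ddit4.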

How the results depend on the processing

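In TRAP against input, Sgk1 was the only one of the 9 genes whose sign turned under any setting or on leaving out a library, and Fkbp5, Nr3c1 and Zbtb16 kept their calls throughout. Called members numbered 3 in females only (7860 of 14674 genes), and 4 to 6 (8150 to 8720 genes) with a library left out. Calls split into 4442 higher and 4198 lower, into 3280 and 6372 under upper quartile scaling, and into 3564 and 5748 with library size alone. Sgk1 had -0.05 and -0.02 under these scalings and -0.02 to 0.17 with a library left out. The replicate block gave 9330 called genes and 7 members, with Plin4 at -0.69 and Tsc22d3 at 0.22, and changed no other member's call.

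For late against early induction, called genes numbered 58 with DESeq2, 182 in females only (1 member), 0 with only the 2 groups, 8 without replicates 10 and 11, and 0 to 164 (0 to 1 member) with a library left out, highest without old early-induced replicate 5. Signs near 0 turned: Hif3a had 0.10 with limma voom, 0.07 without covariate and 0.11 in females only, where Plin4 had 0.04. Without covariate, Tsc22d3 and Ddit4 had -0.01 and -0.02, and without replicates 10 and 11 Tsc22d3, Ddit4 and Nr3c1 had -0.08, -0.08 and 0.07. With a library left out, Hif3a had -0.17 to 0.13, Tsc22d3 -0.03 to 0.06, Ddit4 -0.03 to 0.05 and Nr3c1 -0.04 to 0.04.

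Between sexes, called genes numbered 63 with DESeq2 (1 member), 15 without covariate, 12 in early-induced inputs only, and 17 to 32 with a library left out (0 to 0 members). Nr3c2 had 0.03 without covariate and -0.09 to 0.01 with a library left out. For age by sex, DESeq2 called 19 genes, leaving out a library gave 0 to 523 (0 to 1 member), highest without old early-induced replicate 6, Hif3a had 0.04 with limma voom and -0.34 to 0.16 with a library left out, and Fkbp5 had 0.02, 0.02 and 0.00 under upper quartile scaling, library size alone and a minimum count of 50, and -0.08 to 0.06 with a library left out. Age called 1198 and 2787 genes in females only, and 3294 to 4011 and 4352 to 5316 with a library left out. Called pairs numbered 15 with the shared sex difference removed and 9 to 11 with a library left out. The causes were not tested. In the age contrasts, the counts of called receptor, hypoxia and lipid droplet genes moved by at most 2 under other settings, except that upper quartile scaling called 4 hypoxia genes higher in early-induced mice and females only gave 0 receptor genes lower in late-induced mice. Low counts limit Hif3a and Plin4 most.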

Other observations

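Relatives of Hif3a and Plin4 differed between TRAP and input in both directions. Of 15 hypoxia genes, 6 rose and 3 fell, with a median log2 fold change of 0.20, where 30.4% of all genes were called higher and 28.8% lower, so the share called was near that of all genes. Egln3, a prolyl hydroxylase that marks hypoxia-inducible factors for decay, rose by 1.44 ± 0.17 (edgeR adjusted p 1.25e-06), from 5.39 to 8.24 CPM in input to 10.2 to 30.1 CPM in TRAP libraries. Pfkfb3, a regulator of glycolysis, rose by 1.04 ± 0.09 (edgeR adjusted p 1.8e-08), Hif1a rose by 0.57 ± 0.11 (edgeR adjusted p 0.00037), Epas1 fell by 0.27 (edgeR adjusted p 0.00367), and the vasodilator gene Adm fell by 0.83 (edgeR adjusted p 0.0114). Under upper quartile scaling 5 of the 15 fell.

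Of 12 tested lipid droplet genes besides Plin4, 3 rose and 5 fell in TRAP, beside the same shares of all genes. The lipase genes Pnpla2 (1.26 ± 0.09, edgeR adjusted p 2.23e-09) and Lipe (1.03 ± 0.10, edgeR adjusted p 2.27e-07) and the droplet coat gene Plin2 (1.24 ± 0.18, edgeR adjusted p 1.25e-05) rose. Plin2 had 13.8 to 29.3 CPM in TRAP against 6.74 to 10.7 CPM in input, without overlap. The coat genes Plin5 (-1.05, edgeR adjusted p 0.0134) and Plin3 (-0.71, edgeR adjusted p 2.15e-05) and the lipase inhibitor gene G0s2 (-0.83, edgeR adjusted p 2.95e-05) fell, so the perilipins other than Plin4 were split between both directions.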
